A study of Mus musculus with 6 samples.

Results

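The mitochondrial oxidative phosphorylation genes were examined as 1 module across the cells of the mouse bladder mucosa. They were chosen by symbol in the first chronic injury library: every gene whose symbol begins with mt-, Nduf, Uqcr, Cox4, Cox5, Cox6, Cox7, Cox8 or Atp5, together with Sdha, Sdhb, Sdhc and Sdhd, while the assembly factors named Ndufaf and Sdhaf were left out. This gave 96 of the 18189 genes of that library, 83 encoded in the nucleus and 13 in the mitochondrial genome. By complex and genome, complex I had 38 nuclear and 7 mitochondrial members, complex II 4 and 0, complex III 8 and 1, complex IV 16 and 3, and complex V 17 and 2. Of the 96 genes, 94 were listed in all 6 libraries, and Cox6a2 and Cox8b were not, so those 2 entered no test. The names are not a perfect guide to the complexes. Atp5s and Atp5sl carry the prefix without being subunits of the enzyme, Ndufa4 is counted here with complex I although it is known as a cytochrome c oxidase subunit, and Cyc1, a subunit of complex III, falls outside the rule.

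The libraries were single-cell RNA-seq counts of unique molecular identifiers (UMIs, 1 per captured RNA molecule) from the mucosal layer of the bladders of 8-week-old wild type C57BL/6 mice. The 6 libraries came from healthy mucosa, from acute injury 48 hours after cyclophosphamide (CPP), and from chronic injury after 4 rounds of CPP over 11 days, with 2 libraries per condition. CPP is an alkylating drug whose metabolites reach the bladder in the urine and damage its lining. The labels do not say which mice went into which library, so every p-value below measures the spread between these libraries. They held 54604109 to 111985678 UMIs each, and 49768 cells passed the filters, 5028 to 11799 per library, before sub-clusters without a name were set aside. Pairs of libraries shared 36 to 229 cell barcodes. No cell exceeded 10.001% mitochondrially encoded UMIs in any deposited table, so cells with more had been removed before deposit, and the levels of the mitochondrial genes below are those of the cells under that limit.

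Oxidative phosphorylation passes electrons from NADH (complex I) and succinate (complex II) through ubiquinone to complex III, cytochrome c and complex IV, which reduces oxygen, and the proton gradient built on the way drives ATP synthesis by complex V. Complex II is wholly nuclear encoded. The other complexes join subunits from both genomes: mitochondrial DNA is transcribed inside the organelle as long polycistronic RNAs, while the nuclear genes are transcribed singly under factors such as NRF1, the ETS family factor GABP and YY1. A few nuclear subunits exist as paired isoforms, with 1 in most tissues and another limited to tissues such as testis (Cox6b2), lung (Cox4i2) or heart and skeletal muscle (Cox6a2, Cox7a1 and Cox8b), while Ndufa4l2 is a paralogue of Ndufa4 known to be induced under low oxygen.

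The promoters of 3 members are shown because they span what the module's start regions held: paired NRF1 motifs in Cox6a1, a single ETS motif next to the start in Uqcrh, and none of the searched motifs in Cox6b2, the testis isoform described further on. They are the bases before the RefSeq start (GRCm38.p6) that lie outside the gene, printed 5′ to 3′ on the strand of the gene, with motifs in capitals. They cover chr5:115348982-115349208 (minus strand) for Cox6a1, chr4:116075072-116075320 (minus strand) for Uqcrh and chr7:4753095-4753344 (minus strand) for Cox6b2.
Cox6a1: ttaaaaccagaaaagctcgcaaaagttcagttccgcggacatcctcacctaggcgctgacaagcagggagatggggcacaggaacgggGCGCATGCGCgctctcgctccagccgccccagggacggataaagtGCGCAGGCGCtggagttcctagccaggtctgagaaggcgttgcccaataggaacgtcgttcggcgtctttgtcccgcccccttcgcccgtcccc
Uqcrh: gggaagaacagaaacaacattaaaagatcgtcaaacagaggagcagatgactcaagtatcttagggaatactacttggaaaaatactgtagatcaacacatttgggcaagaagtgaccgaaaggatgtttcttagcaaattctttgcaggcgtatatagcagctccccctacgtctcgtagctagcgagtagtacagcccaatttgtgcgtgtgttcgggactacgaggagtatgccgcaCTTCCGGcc
Cox6b2: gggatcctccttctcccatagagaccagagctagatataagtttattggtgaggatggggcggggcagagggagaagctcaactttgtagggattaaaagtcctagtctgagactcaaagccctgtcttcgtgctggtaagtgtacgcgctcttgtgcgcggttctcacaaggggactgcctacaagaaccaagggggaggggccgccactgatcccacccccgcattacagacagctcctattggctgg

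Windows of 300 bases from 250 before the start could be matched for 66 of the 83 nuclear members, which gave 71 promoters because some genes have several. The NRF1 motif, the capitals of Cox6a1 with the base after the first A left free, stood on either strand in 18 of the 71 promoters, 25.4% against 4.6% of all 32851 promoters. CCGGAAG (ETS) stood in 16, 22.5% against 8.86%, and AAGATGGCG (YY1) in 7, 9.86% against 1.4%. The window of Cox6a1 also holds an ETS match, outside the printed stretch. At least 1 of the 3 motifs was present in 35 promoters, 49.3% against 13.6%. The median GC content was 56.0% in the members' promoters and 52.4% in all. These matches describe the letters in the windows and no binding was measured. Cox6b2 lies on chromosome 7 from 4751792 to 4753094 on the minus strand, with Fam71e2 on the same strand from 4753226 to 4771302 just upstream of it. The printed stretch of Cox6b2 thus runs into Fam71e2, and its bases from 4753226 to 4753344 lie within that gene. Ndufa4l2 lies on chromosome 10 from 127514967 to 127517154 on the plus strand and overlaps the 3′ end of Shmt2 on the other strand. In the mitochondrial genome mt-Atp8 overlaps mt-Atp6, mt-Atp6 overlaps mt-Co3, mt-Nd4l overlaps mt-Nd4, and mt-Nd5 overlaps mt-Nd6 on the other strand. How reads in those overlaps were counted was not examined.

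The first question was how the module varied with the layer of the urothelium, the lining epithelium, which runs from basal cells through intermediate cells to the superficial umbrella cells facing the urine. Cells were placed in classes from markers other than the members, and no member was among the 3000 genes used for clustering. The summed urothelial markers reached 3476 to 6455 CPM (counts scaled to the total UMIs of the class in a library) in urothelial cells against 270 to 1681 in mesenchymal cells, and the summed mesenchymal markers 20768 to 31696 in mesenchymal against 88 to 381 in urothelial cells. Basal and intermediate cells are the ranges on either side of a score cut, and 2325 of 26855 such cells lay within 0.1 of it. Any urothelial sub-cluster whose leading genes held more markers of other cell types than urothelial markers was left out. The cells so removed were 6.3 and 1.10% of the urothelial cells in the healthy, 8.13 and 14.98% in the acute and 5.73 and 10.20% in the chronic libraries. The part of this removal in the injury comparisons below was not tested.

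The summed nuclear members rose from basal to superficial cells in every library. In basal cells they made up 2.32 and 2.80% of all UMIs in the healthy libraries, 2.71 and 3.15% in the acute and 3.47 and 2.82% in the chronic libraries. In intermediate cells the values, in the same order, were 2.58, 3.06, 2.96, 3.45, 3.81 and 3.22%. In superficial cells they were 3.15, 3.71, 3.57, 4.04, 3.96 and 3.85%. Thus each library climbed at each step, although the lowest superficial library lay below the highest basal one. The mean difference was 0.14 ± 0.03 on the log2 scale for intermediate over basal cells and 0.23 ± 0.09 for superficial over intermediate cells (SD, n = 6 libraries, higher in 6 of 6 each). The exact two-sided sign-flip permutation test gave p = 0.03125 for both, the smallest that 6 libraries allow, and 0.04688 after adjustment over 9 class comparisons. With mitochondrially encoded and ribosomal protein genes taken out of the total, the superficial step shrank to 0.05 (log2), the first step was 0.17, and neither passed. Both calls were also lost without integration (0.1647 and 0.2146, first step and second) and with the mean of the shares of single cells (0.1389 and 0.2278), at differences of about the same size. Nuclear RNA, taken as Malat1 plus Neat1, fell over the same layers in every library, for example from 6437 over 3711 to 2336 CPM in healthy library 1 and from 3148 over 1889 to 794 CPM in chronic library 2, and its part in the rise of the nuclear members was not tested.

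The mitochondrially encoded share went from a mean of 2.72% in basal to 3.23% in intermediate cells, by 0.24 on the log2 scale and in 6 of 6 libraries (exact p = 0.03125, adjusted 0.05625). This exact p equals that of the nuclear share, and its adjusted value is larger because 5 and not 6 of the 9 comparisons reached the smallest p, so the adjusted values do not set the 2 shares apart. From intermediate to superficial cells the difference was 0.04 on the log2 scale, higher in 4 of 6 libraries (exact p = 0.75). The superficial value ranged from 1.62% in chronic library 2 to 4.89% in healthy library 2. Of the 3 layers superficial cells lay nearest the 10% limit: up to 12.295% of superficial cells of a library had over 8% mitochondrially encoded UMIs, against under 1% of basal cells, and the part of that limit in these values was not tested.

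**Figure D1:**
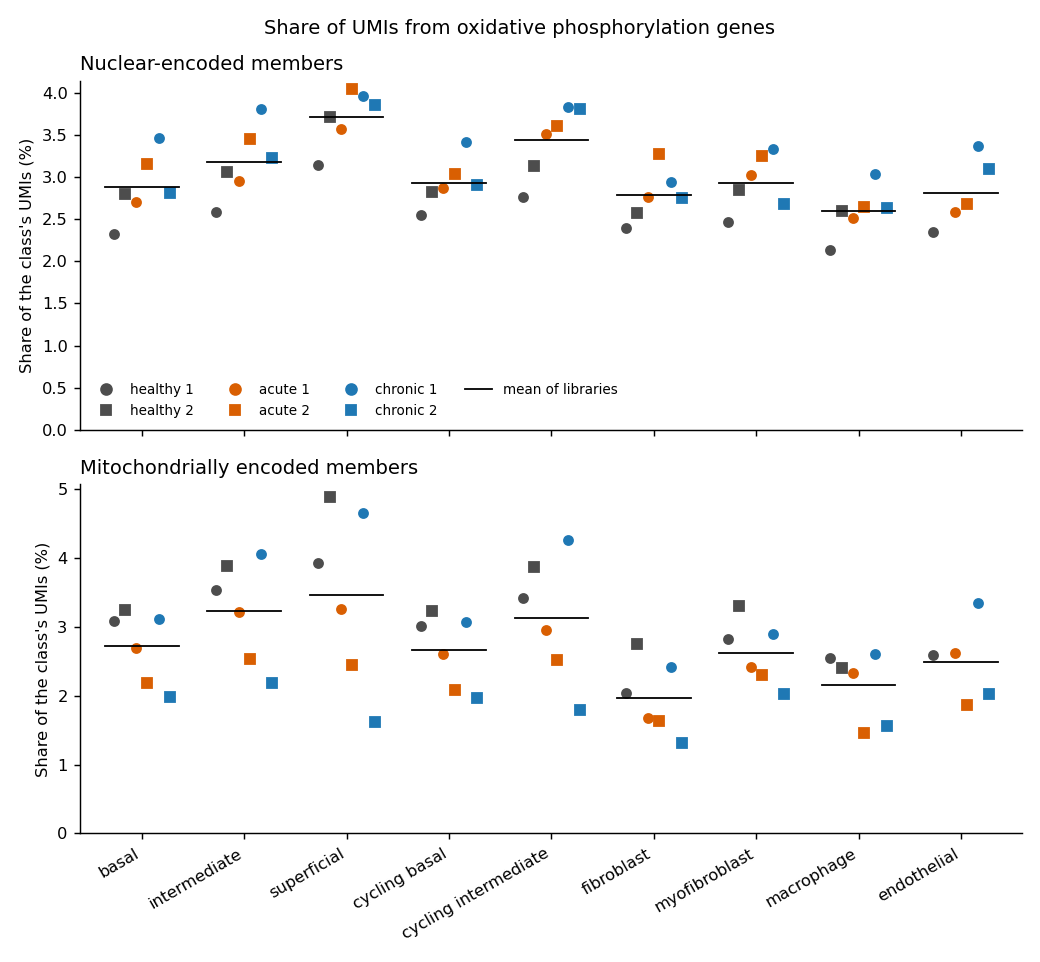
Share of all UMIs (%) held by the summed nuclear members and by the summed mitochondrially encoded members in each cell class. Each point is 1 library and each bar the mean over libraries, and the nuclear share climbs from basal (2.32 to 3.47%) to superficial cells (3.15 to 4.04%).

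Gene by gene, counts were summed per library and class and compared within libraries by edgeR's quasi-likelihood test, with a gene called at an adjusted p below 0.05 over all genes tested. Between intermediate and basal cells 80 nuclear members were tested, and 49 were higher and 3 lower in intermediate cells, together with 9 mitochondrial members higher and 1 lower. Over all 11984 genes 44.6% were called, 21.9% higher and 22.8% lower, so calls in both directions were common while the members were mostly on one side. The median difference of the nuclear members was 0.15 on the log2 scale and that of the mitochondrial members 0.20, against −0.01 over all genes. Scaled to total UMIs without TMM factors, the split was 36 nuclear members higher and 10 lower and 7 mitochondrial members higher and 2 lower, while the share of calls that were higher over all genes fell from 49.0 to 32.3%.

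All complexes took part in this first step. In complex I 19 of 38 nuclear members were higher in intermediate cells and 1 lower. Ndufv3, an accessory subunit of the part that oxidises NADH, was 129, 169, 163, 186, 265 and 199 CPM in the basal cells of healthy libraries 1 and 2, acute 1 and 2 and chronic 1 and 2. In intermediate cells it was 197, 237, 243, 281, 364 and 319 CPM, so every library rose and the ranges overlapped only across libraries. The log2 difference was 0.66 ± 0.04 (SE, adjusted p = 4.69e-11). All 4 members of complex II were higher. In complex III 5 of 8 were higher, led by Uqcr10, a small subunit, at a mean of 1395 against 1020 CPM (0.54 on the log2 scale, adjusted p = 2.05e-11). Uqcrc1, a core subunit of the same complex, fell in intermediate cells by 0.50 on the log2 scale (73.5 against 109 CPM, adjusted p = 7.98e-08). Its chronic library 1 stood apart, with 225 CPM in basal and 156 in intermediate cells while the others lay between 74.5 and 97.6 and between 45.2 and 67.7.

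In complex IV 11 of 13 tested nuclear members were higher, and Cox6b2 was lower (14.3 against 31.8 CPM, log2 −1.02, adjusted p = 5.24e-07), with Cox8a at 1998 against 1587 CPM (log2 0.43) and Cox7c at 1156 against 925 CPM (log2 0.41). In complex V 10 of 17 were higher and none lower, among them Atp5g1, which encodes subunit c of the rotor ring, at 463 against 368 CPM (log2 0.42). Of the mitochondrial genes mt-Co1, the catalytic subunit of complex IV, was higher in 6 of 6 libraries (7908 against 6124 CPM, log2 0.45 ± 0.03 SE, adjusted p = 1.04e-10). The subunits mt-Atp6, mt-Co2 and mt-Nd1 followed with log2 differences of 0.36, 0.35 and 0.34. The exception was mt-Nd6, the single member on the other mitochondrial strand, at 7.27 against 9.59 CPM (log2 −0.33, adjusted p = 0.0262, lower in 4 of 6 libraries).

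The step from intermediate to superficial cells was less even. Of 80 nuclear members 32 were higher and 5 lower in superficial cells, and of the 13 mitochondrial members 1 was higher and 5 lower, where 52.9% of all 12027 genes were called, 24.8% higher and 28.1% lower. The medians were 0.14 (nuclear), −0.15 (mitochondrial) and −0.02 (all genes). Without TMM factors the nuclear split became 62 higher and 3 lower and the mitochondrial split 1 and 1, and the share of calls that were higher over all genes rose from 46.9 to 63.3%. By complex the nuclear members higher and lower were 16 and 1 (I), 1 and 2 (II), 3 and 1 (III), 7 and 1 (IV) and 5 and 0 (V).

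Among nuclear members with a mean of at least 50 CPM, Atp5g1 had the largest rise. In superficial cells it was 652 and 606 CPM in the healthy, 1114 and 760 in the acute and 808 and 877 in the chronic libraries, against 385 to 556 CPM in intermediate cells, so the layers did not overlap. The log2 difference was 0.67 ± 0.07 (SE, adjusted p = 4.85e-06). Ndufv3 rose again (431 against 274 CPM, log2 0.55), as did Uqcrb of complex III (558 against 382 CPM, log2 0.49) and the complex I accessory subunits Ndufb3 and Ndufa13 (log2 0.48 each). Against these rises Cox7a2l was lower in 6 of 6 libraries. It lay at 523 to 719 CPM in superficial and 655 to 925 CPM in intermediate cells (log2 −0.54 ± 0.05 SE, adjusted p = 1.90e-06). Uqcrh, the hinge subunit of complex III whose promoter is printed above, was also lower in all 6 (957 against 1134 CPM, log2 −0.37), and Ndufa6 in 5 of 6 (log2 −0.32). For Sdhb and Sdha, the iron-sulfur and flavin subunits of complex II, the log2 differences were −0.20 and −0.16, each lower in 4 of 6 libraries, and both calls were lost without TMM factors.

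Among the mitochondrial members mt-Nd1 alone was higher in superficial cells, in 6 of 6 libraries. Its superficial values were 4147, 4599, 4889, 2964, 5441 and 1826 CPM in the order healthy, acute, chronic, against 3414, 3342, 3227, 2309, 3387 and 1744 CPM in intermediate cells (log2 0.30 ± 0.07 SE). Of complex I 3 other subunits were lower, with mt-Nd2 at −0.39, mt-Nd3 at −0.34 and mt-Nd4 at −0.28, and so were mt-Cytb (−0.30) and mt-Co3 (−0.29). Without TMM factors mt-Nd2 alone of these 5 kept an adjusted p under 0.05 (0.0154).

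Across both steps, superficial against basal, 49 of 80 nuclear members were higher and 4 lower and 4 mitochondrial members higher and 1 lower, against 58.5% of 11161 genes called, 28.7% higher and 29.9% lower. The medians were 0.34, −0.03 and 0.00 for nuclear members, mitochondrial members and all genes. Ndufv3 differed by 1.22 ± 0.09 (log2, SE), Atp5g1 by 1.10, Uqcrb by 0.85, Ndufb3 by 0.82 and Ndufa13 by 0.74. On the other side stood Cox6b2 (19.4 against 31.8 CPM, −0.74), Cox7a2l (−0.52), Ndufa8 (−0.30) and Uqcrh (−0.20). By complex, the counts higher and lower were 22 and 1 (I), 1 and 0 (II), 4 and 1 (III), 11 and 2 (IV) and 11 and 0 (V).

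Other mitochondrial genes were read from lists of known function, beside 58.5% of all genes called between superficial and basal cells, 44.6% in the first step and 52.9% in the second. Between superficial and basal cells 26 of 42 assembly factors were higher and none lower (median 0.36 on the log2 scale), led by Sdhaf1, an assembly factor of complex II (log2 1.13). Of 16 carriers and subunits outside the rule 11 were higher and 2 lower, with Chchd10 at 1.16. Of 12 transcriptional regulators 1 was higher and 9 lower, with Nfe2l2, the regulator of the antioxidant response, at −1.88 and a median of −0.53. Genes for the upkeep and expression of mitochondrial DNA were higher in 6 and lower in 1 of 26, and Top1mt, the mitochondrial topoisomerase, stood at −1.78. The tricarboxylic acid cycle gave 5 higher and 2 lower of 20. The called shares of the upkeep and cycle genes lay below that of all genes, which was not tested. The separate steps gave 13 and 20 assembly factors higher and none lower (intermediate over basal, then superficial over intermediate). Carriers were higher in 6 and 9 and lower in 2 and 1, upkeep genes higher in 2 and 6 and lower in 4 and 1, and regulators higher in 1 and 0 and lower in 6 and 7. The cycle genes were higher in 6 and 5 and lower in 3 and 2. In the first step Polg, the mitochondrial DNA polymerase, was at 46.5 against 25.0 CPM (log2 0.96), Chchd10 at 181 against 111 CPM (0.79), Nfe2l2 at −0.78 and Top1mt at −0.76. In the second, Sdhaf1 was at 0.71 and Tmem126b at 0.68, while Ppargc1a, a coactivator known to drive mitochondrial biogenesis, was at 26.5 against 64.5 CPM (−1.57) and Nfe2l2 at −1.11.

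**Figure D2:**
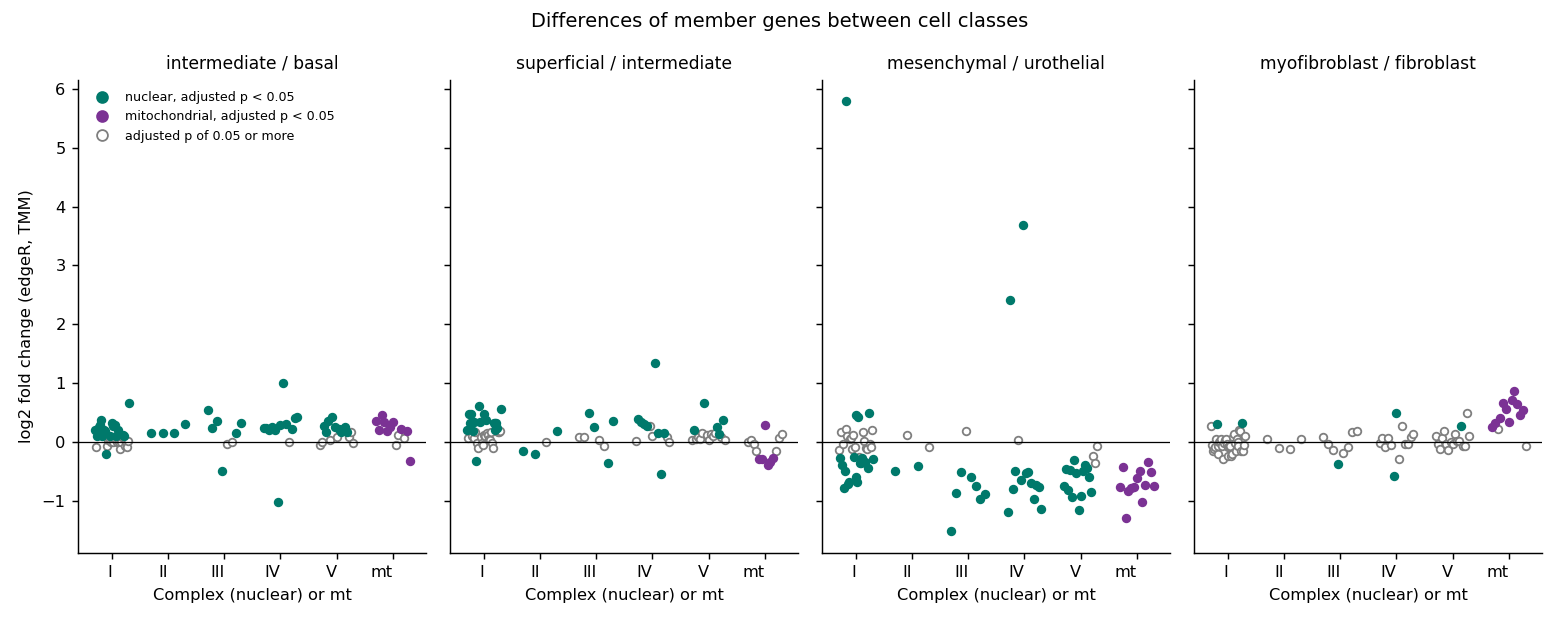
Difference (log2) of each tested member in 4 class comparisons, grouped by complex and genome, with filled points for an adjusted p below 0.05. With TMM factors, the nuclear members sit mostly above 0 between layers (median 0.15 and 0.14) and mostly below 0 in mesenchymal against urothelial cells (median −0.39), while 12 of 13 mitochondrial members are above 0 in myofibroblasts against fibroblasts (median 0.46). The mesenchymal fall depends on that scaling: 10 of the 55 called nuclear members change sign without TMM factors.

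The next comparison set cycling against non-cycling cells of the basal and of the intermediate class, cycling being called from S and G2/M phase genes. A sub-cluster in which most cells cycled was not named superficial, so the cycling intermediate class may hold cells with superficial markers. Cox7a1 made up a mean of 1.97% of Cox7a1 plus Cox7a2 in cycling intermediate, 1.08% in intermediate and 2.42% in superficial cells. The part of layer in these differences was not tested. Cox6b2 had the largest rise in cycling basal and in cycling intermediate cells, and the mitochondrially encoded members that were called were all lower. Among 79 nuclear members tested in basal cells 4 were higher and 11 lower in cycling cells, and 5 of 13 mitochondrial members were lower, where 20.7% of all 9659 genes were called, 11.2% higher and 9.5% lower. The number called over both sets, 20, was 8 without acute library 1, 9 without acute library 2 and 9 without chronic library 2. In intermediate cells 11 of 80 nuclear members were higher, 6 lower, and 9 of 13 mitochondrial members lower, against 34.2% of all 12157 genes, 16.3% higher and 17.9% lower. Those 26 became 17 without chronic library 2. The basal and the intermediate counts also fell without integration, and the basal count with DESeq2, as given further on. The scaling mattered: without TMM factors the nuclear split was 16 higher and 5 lower in basal and 36 and 3 in intermediate cells, the mitochondrial split 0 and 0 and 1 and 4, and the share of all calls that were higher rose from 54.1 to 77.0% and from 47.6 to 79.5%. The medians of nuclear members, mitochondrial members and all genes were −0.02, −0.14 and −0.03 in basal and 0.03, −0.34 and −0.04 in intermediate cells.

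Cox6b2, the testis isoform of a subunit of complex IV, was 26.8 and 13.7 CPM in cycling basal cells of the healthy libraries, 284 and 195 in the acute and 140 and 164 in the chronic libraries. Their non-cycling basal cells held 9.24 and 8.52, 57.5 and 36.3, and 46.4 and 32.6 CPM, so the cycling value was the higher in 6 of 6 libraries. The log2 difference was 1.98 ± 0.13 (SE, adjusted p = 6.96e-14), and in intermediate cells, where 64.2 CPM stood against 14.3, it was 1.91 ± 0.17 (adjusted p = 6.93e-07). Ndufb6, a membrane arm subunit of complex I, was higher in cycling basal cells (134 against 91.3 CPM, log2 0.50), as was Ndufab1, the acyl carrier protein of mitochondria (193 against 145 CPM, log2 0.35), and Ndufv1, which binds NADH (log2 0.25, adjusted p = 0.0484). The same 3 genes were higher in cycling intermediate cells, with log2 differences of 0.32 for Ndufb6, 0.47 for Ndufab1 and 0.28 for Ndufv1, and so were Cox5a (513 against 376 CPM, log2 0.28) and Uqcrc1 (log2 0.27). Ndufab1 showed the pattern in each library, at 163, 162, 266, 243, 232 and 231 CPM in cycling against 100, 123, 135, 178, 186 and 115 CPM in non-cycling intermediate cells.

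On the lower side stood Ndufa6 (log2 −0.38 in basal and −0.56 in intermediate cells), Ndufa7 (−0.29 and −0.25) and Uqcrh (−0.27 and −0.47), joined by Uqcr11 (−0.27) and Atp5e (−0.26) in basal cells and by Cox7a2l (−0.47) and Cox4i1 (−0.23) in intermediate cells. For Ndufa7 and Cox4i1 the intermediate calls were lost without TMM factors. Of the mitochondrial members mt-Nd4l, mt-Nd3, mt-Co1, mt-Nd4 and mt-Co3 differed by −0.28 to −0.14 on the log2 scale in basal cells, and mt-Nd4l, mt-Nd2, mt-Nd4, mt-Co1, mt-Cytb, mt-Co3, mt-Nd5, mt-Nd3 and mt-Co2 by −0.40 to −0.24 in intermediate cells. As a share of UMIs the nuclear members were higher in cycling intermediate cells (3.44 against 3.18%, log2 0.11, 6 of 6 libraries, exact permutation p = 0.03125, adjusted 0.04688), while the difference in basal cells was 0.03 (4 of 6, exact p = 0.3125). The mitochondrial share differed by −0.03 in basal (exact p = 0.03125, adjusted 0.05625) and −0.07 in intermediate cells (exact p = 0.28125). The intermediate rise in nuclear share turned to −0.02 when mitochondrial and ribosomal protein genes were left out of the total. Its call was also lost without integration and with the mean of the shares of single cells. Malat1 plus Neat1 was lower in cycling than in non-cycling intermediate cells of all libraries but healthy library 2. It was 2158 against 4543 CPM in acute library 1 and 5968 against 4589 CPM in healthy library 2, and its part was not tested.

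The other lists were counted against the 20.7% of all genes called in basal and 34.2% in intermediate cells. Counts higher and lower in basal cells were 2 and 2 of 41 assembly factors, 2 and 2 carriers, 1 and 0 of 24 upkeep genes, 2 and 1 of 11 regulators and 3 and 2 cycle genes, with Idh2 at 0.81 and Gabpb1, a subunit of GABP, at 0.76 above and Chchd10 at −0.79 and Uqcc3 at −0.49 below. In intermediate cells they were 7 and 1, 4 and 2, 2 and 0, 2 and 3 and 3 and 1, with Tfb1m at 0.71, Cox18 at 0.64, Ppargc1a at −1.0 and Uqcc3 at −0.52.

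Outside the epithelium most members were lower with TMM scaling, with a few isoforms far higher. Mesenchymal cells, which are the fibroblasts and myofibroblasts under the urothelium, held a nuclear share of 2.80% against 3.25% in urothelial cells (log2 −0.21, lower in 6 of 6, exact permutation p = 0.03125, adjusted 0.04688) and a mitochondrial share lower by 0.46 on the log2 scale (exact p = 0.03125, adjusted 0.05625). The nuclear call was lost without integration and with the mean of the shares of single cells. It was also lost with mitochondrially encoded and ribosomal protein genes out of the total, where the difference was larger. Malat1 plus Neat1 was higher in mesenchymal than in urothelial cells of every library, at 10496 against 3813, 22546 against 5860 and 7123 against 1771 CPM in healthy library 1 and chronic libraries 1 and 2, and its part in the lower shares was not tested. Of 81 nuclear members 6 were higher and 49 lower, with Cox4i2 among the 6 although it passed the filter on low counts only through its mesenchymal level, and all 13 mitochondrial members were lower, against 72.1% of all 13147 genes called, 34.3% higher and 37.8% lower. The nuclear, mitochondrial and all-gene medians were −0.39, −0.75 and −0.07. Here the scaling decided much: without TMM factors the all-gene median moved to 0.34, the nuclear split became 27 higher and 23 lower with a median of 0.02, and 6 mitochondrial members were lower with a median of −0.34. The share of calls that were higher over all genes rose from 47.6 to 66.1%. The sign then changed for 10 called nuclear members, among them Ndufa12, Atp5j, Ndufb9, Atp5f1 and Ndufv3, and for mt-Nd4l.

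By complex, the TMM-scaled counts gave the following, with no test between complexes. In complex III 7 of 8 nuclear members were lower (median −0.81), in complex IV 11 of 14 lower and 2 higher, Cox6b2 and Cox4i2 (−0.68), in complex V 14 of 17 lower (−0.50), in complex II 2 of 4 lower and in complex I 15 of 38 lower and 4 higher (−0.11). Uqcr10 was 1001, 1235, 1201, 1578, 1724 and 1590 CPM in urothelial and 437, 593, 492, 789, 752 and 846 CPM in mesenchymal cells, with no overlap. Its log2 difference was −1.52 ± 0.10 (SE), and −1.11 without TMM factors. Cox4i1, the common isoform of a regulatory subunit of complex IV, lay at 1256 to 1602 CPM in mesenchymal and 2308 to 2596 CPM in urothelial cells (log2 −1.19), and Atp5g2 (−1.16), Cox8a (−1.13) and Uqcrh (−0.97) were also lower. For mt-Co1 the values were 3794 to 4835 CPM in mesenchymal and 6153 to 9114 CPM in urothelial cells (log2 −1.29). Those 6 genes were lower under both scalings. On the higher side stood Ndufa4l2 (log2 5.79) and Cox6b2 (3.69), and the complex I subunits Ndufs7 (180 against 100 CPM, 0.49), Ndufb4 (278 against 156, 0.46) and Ndufb6 (164 against 94.4, 0.42).

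Of the other lists in mesenchymal cells, beside the 72.1% of all genes called, 15 of 42 assembly factors were higher and 10 lower, 3 and 10 of 16 carriers, 3 and 8 of 26 upkeep genes, 6 and 6 of 12 regulators and 4 and 10 of 20 cycle genes. The called shares of the assembly factors and upkeep genes lay below that of all genes, a difference that was not tested. The extremes were Atf5 (75.4 against 7.54 CPM, log2 2.82), Idh2 (1.92), Ppargc1a (3.69 against 56.4 CPM, −4.68) and Chchd10 (30.8 against 185 CPM, −3.15).

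Most called members were also lower in macrophages and in endothelial cells, whose summed markers reached 16077 to 34886 and 599 to 3097 CPM in their own class. The summed urothelial markers in those classes were 946 to 2943 and 661 to 3836 CPM and the summed mesenchymal markers 842 to 1610 and 1623 to 5383 CPM, and the part of RNA from other cells in these differences was not tested. Malat1 plus Neat1 was higher in both classes than in urothelial cells of every library. It was 10474 and 14269 against 3813 CPM in healthy library 1 and 6091 and 3316 against 1771 CPM in chronic library 2. Its part in the lower shares was not tested. In macrophages the nuclear share was 2.59% (log2 −0.32 against urothelial cells, 6 of 6 lower, exact permutation p = 0.03125, adjusted 0.04688) and the mitochondrial share was lower by 0.57 (adjusted 0.05625). The nuclear call was lost under the same alternatives as in mesenchymal cells. Of 80 nuclear members 9 were higher and 40 lower and 12 of 13 mitochondrial members lower, against 52.3% of all 12401 genes, 22.8% higher and 29.5% lower. Medians were −0.27, −0.50 and −0.19 for nuclear members, mitochondrial members and all genes. Without TMM factors the nuclear split was 12 and 34 and the mitochondrial split 0 and 12. Counts higher and lower by complex were 5 and 15 (I), 1 and 1 (II), 1 and 6 (III), 1 and 7 (IV) and 1 and 11 (V). The largest falls were those of Uqcr10 (684 against 1388 CPM, log2 −1.09), Cox4i1 (−0.72), Uqcr11 (−0.70), Cox8a (−0.65) and Uqcrh (−0.64), and of mt-Cytb (−0.83) and mt-Co1 (−0.79). Uqcrc1 (0.39), Atp5f1 (0.37), Sdhb (0.32), Ndufc2 (0.32) and Ndufb8 (0.32) were higher. Idh2 (2.16) and Gabpb1 (0.82) rose among the other lists, and Ppargc1a (−2.08) and Chchd10 (−1.62) fell. Those lists held 0 and 7 assembly factors, 2 and 6 carriers, 1 and 5 upkeep genes, 3 and 2 regulators and 6 and 8 cycle genes higher and lower.

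Endothelial cells reached 20 cells in 5 libraries, healthy library 2 holding too few. Before doublets were removed the class held 54 and 15 cells in the healthy, 52 and 385 in the acute and 28 and 27 in the chronic libraries. Counts per library in the 5 ran from 128 to 910 UMIs for Cox6c but from 3 to 46 for Ndufa9, so low members rested on few molecules. There 2 of 80 nuclear members were higher and 46 lower and 12 of 13 mitochondrial members lower, against 35.6% of all 12187 genes, 16.2% higher and 19.3% lower, with medians of −0.55, −0.72 and −0.20. Without TMM factors 6 nuclear members were higher and 12 lower, 1 mitochondrial member was higher and 4 lower, the all-gene median was 0.22, and the share of all calls that were higher rose from 45.6 to 73.3%. By complex the counts higher and lower were 1 and 16 (I), 0 and 2 (II), 0 and 5 (III), 1 and 10 (IV) and 0 and 13 (V). Uqcr10 (−1.35), Atp5e (−1.14), Atp5g1 (−1.10), Cox7b (−0.95) and Ndufv3 (−0.92) were the lowest nuclear members with a mean of at least 50 CPM, and mt-Nd3 (−1.04) and mt-Cytb (−0.98) the lowest mitochondrial ones. The share test, at log2 −0.22 for the nuclear members, could not go below 0.0625 with 5 libraries (exact permutation p = 0.0625, adjusted 0.08036). The other lists held 0 and 8 assembly factors, 1 and 8 carriers, 0 and 6 upkeep genes, 3 and 3 regulators and 0 and 5 cycle genes higher and lower, with Gabpb1 at 1.55, Myc at 0.87, Ppargc1a at −2.53 and Chchd10 at −1.79.

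Within the mesenchyme the contrast fell on the other genome. Myofibroblasts held a mitochondrially encoded share of 2.62% against 1.97% in fibroblasts, higher in 6 of 6 libraries (log2 0.44, exact permutation p = 0.03125, adjusted 0.05625), while the nuclear share differed by 0.08 (4 of 6, exact p = 0.15625). Malat1 plus Neat1 was also higher in myofibroblasts of all libraries but chronic library 1. It was 12815 against 7423 CPM in healthy library 1 and 21154 against 22648 CPM in chronic library 1, and its part was not tested. By gene 11 of 13 mitochondrial members were higher and none lower, against 4 nuclear members higher and 2 lower of 80 and 22.2% of all 9851 genes called, 10.6% higher and 11.5% lower. The medians were 0.46 for mitochondrial members, −0.03 for nuclear members and −0.04 for all genes. The split without TMM factors was 12 and 0 for the mitochondrial and 5 and 1 for the nuclear members. The number called over both sets, 17, was 11 without healthy library 1, 11 without acute library 1 and 10 without acute library 2.

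For mt-Co3, the third core subunit of complex IV, fibroblasts held 2899, 4031, 1863, 1937, 4230 and 1888 CPM and myofibroblasts 4973, 5340, 3311, 3538, 5867 and 3493 CPM, so every library rose and the classes overlapped across libraries (log2 0.67 ± 0.10 SE, adjusted p = 4.47e-05). The fibroblasts of chronic library 2 were only 22 cells, with 215 UMIs of mt-Co3, 28 of mt-Nd2 and 7 of mt-Nd3. The complex I subunits mt-Nd3 (160 against 89.3 CPM, 0.87 ± 0.14 SE), mt-Nd2 (0.71) and mt-Nd4 (0.65) and mt-Cytb (0.57) rose as well. Cox6c led the nuclear members at 975 to 1513 CPM in myofibroblasts and 654 to 1019 CPM in fibroblasts (log2 0.49 ± 0.10 SE, adjusted p = 0.000854), followed by Ndufs8 (0.32), Ndufa3 (0.30) and Atp5k (0.27). Uqcrc1 was lower (−0.37), a call lost without TMM factors, and Cox6b2 was lower in 4 of 6 libraries (242 against 350 CPM, −0.58, adjusted p = 0.0284). Of the other lists 1 assembly factor was higher (Ecsit, 0.77) and 3 lower (Ndufaf1 at −0.80), 2 carriers, 2 upkeep genes (Top1mt at −0.69) and 1 regulator were lower, and no cycle gene was called.

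Ndufa4l2 and Cox6b2, the members with the largest differences above, and the other tissue-limited isoforms were set against their common partners. Each is given as a percent of the UMIs of itself and its common partner. Both are counted once per molecule at the 3′ end, so these percents were not divided by length. Cox6b2 made up 2.12 ± 1.11% (SD, n = 6) of the Cox6b pair in urothelial cells, 28.4 ± 8.08% in mesenchymal cells, 32.9 ± 10.2% in fibroblasts, 25.7 ± 8.00% in myofibroblasts, 6.51 ± 2.21% in macrophages and 22.9 ± 11.3% in endothelial cells (n = 5). The only healthy library with enough endothelial cells held 4.32% (6 UMIs), against 24.1 to 34.8% in the injured ones. Within the urothelium it was 4.27 ± 2.55% in basal, 1.79 ± 0.80% in intermediate, 1.92 ± 1.28% in superficial, 15 ± 10.4% in cycling basal and 6.33 ± 4.11% in cycling intermediate cells. The intermediate and superficial percents lay within their spread, whereas the mesenchymal classes stood above all non-cycling urothelial ones. In cycling superficial cells Cox6b2 was 2.62 ± 2.38% of its pair (n = 5), on 0 to 150 UMIs per library. That percent was above the non-cycling superficial one in both acute libraries. It was below it in healthy library 2 and both chronic libraries, so the higher percent in cycling cells did not extend to every library there. This difference was not tested.

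Ndufa4l2 was highest in mural cells and then in mesenchymal cells. It held 183, 71.6, 117, 227, 105 and 70.2 CPM in fibroblasts, 84.1 to 176 CPM in myofibroblasts and a mean of 1.77 CPM in urothelial cells (log2 5.79 ± 0.30 SE for mesenchymal over urothelial, adjusted p = 3.10e-08). Its partner Ndufa4 was at a mean of 671 and 442 CPM, a log2 difference of 0.22 that did not pass (adjusted p = 0.111). As a percent of the pair Ndufa4l2 was 0.41 ± 0.21% in the urothelium, while fibroblasts had 14.7 ± 5.23% and myofibroblasts 16.7 ± 2.73%. Mural cells, the pericytes and smooth muscle around vessels (summed markers 1124 to 3585 CPM), reached 20 cells only in the acute libraries, and there it was 59.7 and 66.5%, at 524 and 992 CPM. Cox4i2, the lung isoform, was 227 and 781 CPM in those mural cells, 9.52 and 27.6% of its pair, and 0.011% in urothelial cells. Cox4i2 passed the filter on low counts in mesenchymal against urothelial cells but in none of the other class comparisons. It passed through its level on the mesenchymal side, a mean of 2.33 CPM against 0.268, so its fitted difference of 2.40 (log2) is a description.

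Cox7a1 marked the urothelial layers. It was 1.14, 2.41, 2.15, 4.21, 4.95 and 5.19 CPM in basal, 3.91, 6.17, 4.28, 5.42, 9.53 and 8.18 CPM in intermediate, and 7.97, 11.3, 17.6, 20.4, 22.3 and 24 CPM in superficial cells. All superficial values but the healthy library 1 value lay above every intermediate one. The log2 differences were 1.01 for intermediate over basal, 1.34 ± 0.13 (SE, adjusted p = 1.98e-06) for superficial over intermediate and 2.39 ± 0.14 (adjusted p = 1.47e-09) for superficial over basal cells. It remained a small part of its pair, 0.66 ± 0.29, 1.08 ± 0.31 and 2.42 ± 0.76% of Cox7a1 plus Cox7a2 in the 3 layers (SD, n = 6). In mesenchymal against urothelial cells its log2 difference was −0.51 although the mean levels were 8.43 and 8.26 CPM, and the call was lost without TMM factors. Cox8b reached at most 36 UMIs in fibroblasts of a library, and Cox6a2 made up at most a mean of 0.48% of its pair in any class of the 4 libraries that list it. Healthy library 1 and acute library 1 list no gene found in fewer than 8 and 6 cells, so low genes may be missing there.

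Because free RNA from broken cells enters every droplet, the isoforms were set beside the summed mesenchymal markers, both as a percent of the mesenchymal level of the same library. In urothelial cells the markers stood at 0.39 to 1.52%, Ndufa4l2 at 0.62 to 2.65% and Cox6b2 at 3.20 to 7.87%. In basal cells the markers were 0.44 to 1.59% and Cox6b2 4.11 to 15.7%, and in cycling basal cells 0.48 to 1.85% and 6.62 to 77.3%. The range of Ndufa4l2 in urothelial cells thus overlapped that of the markers, and the range of Cox6b2 lay above theirs in all 3. Cox4i2, at 6 to 27 UMIs per library, stood at 4.28 to 33.7% in urothelial cells, so a percent above the markers was not particular to Cox6b2. In macrophages the markers reached 3.15 to 7.02%, Ndufa4l2 0 to 12.8% and Cox6b2 11.1 to 22.5%, and the macrophage means were 48.0 CPM for Cox6b2 (log2 1.56 over urothelial cells) and 8.01 CPM for Ndufa4l2 (1.97). In endothelial cells Cox6b2 had a mean of 205 CPM (log2 2.83 ± 0.21 SE), which the injured libraries carried, since healthy library 1 held 6 UMIs. Ndufa4l2 (2.54) rested on healthy library 1 (62.2 CPM) and acute library 2 (19.3 CPM) and was 0 in acute library 1 and chronic library 1. Cox4i2, high in mural cells, made up 5.39% of its pair in endothelial cells of healthy library 1 and at most 0.472% in the other libraries. The part of mural RNA in these values was not tested.

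**Figure D3:**
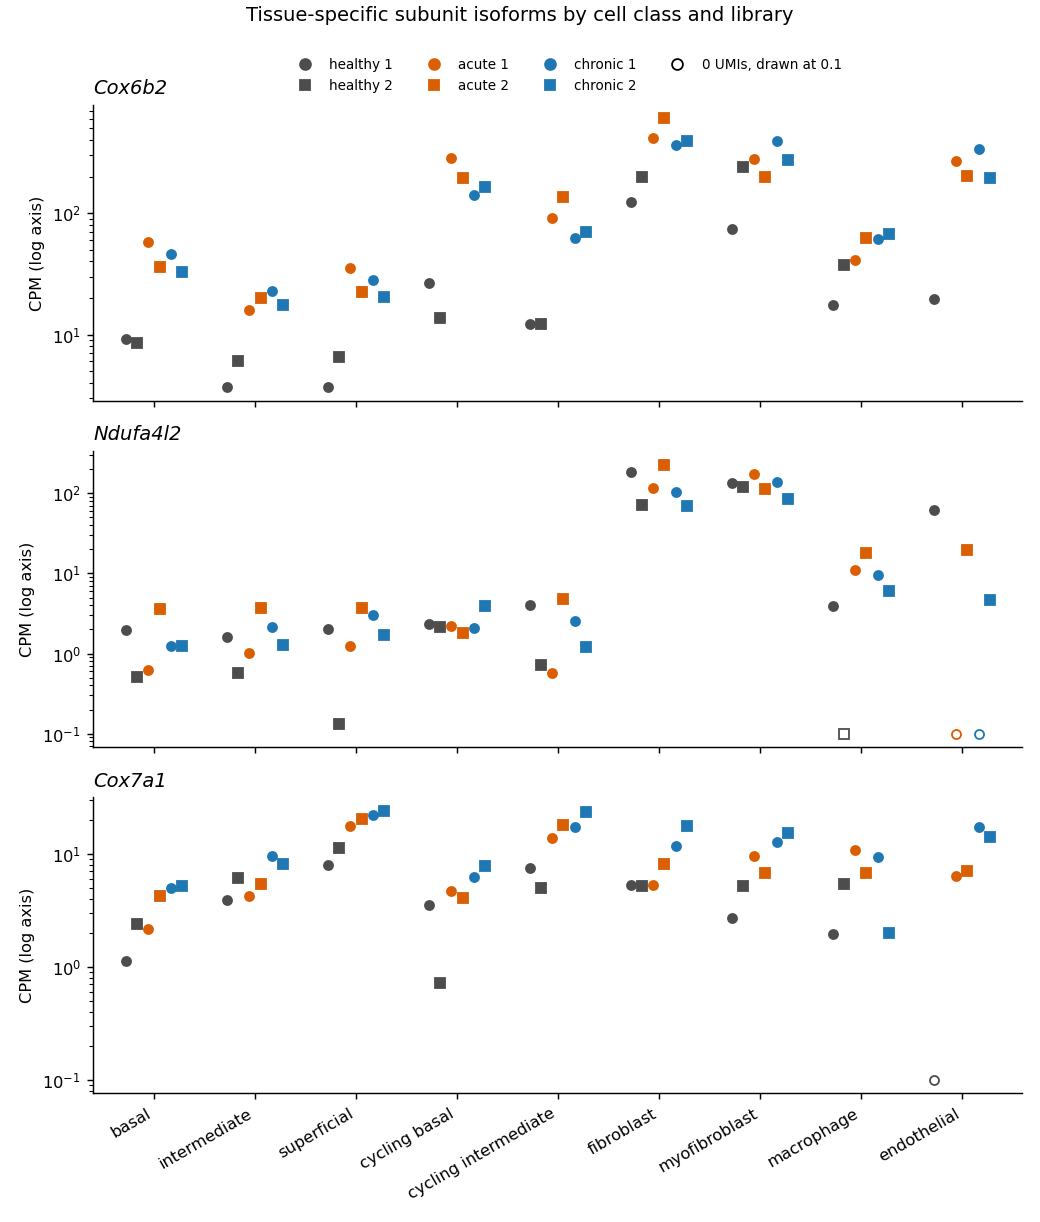
Level (CPM, log axis) of Cox6b2, Ndufa4l2 and Cox7a1 in each cell class, with 1 point per library and open symbols for 0 UMIs. Mural cells are not drawn. Cox6b2 has its highest values in fibroblasts, and in cycling basal cells of the injured libraries it lies within the myofibroblast range. Ndufa4l2 stands highest in fibroblasts and myofibroblasts, and Cox7a1 climbs from basal (1.14 to 5.19 CPM) to superficial cells (7.97 to 24 CPM).

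The last question was how the module changed with injury, by class, with 2 libraries in each condition. Mitochondrially encoded RNA was lower relative to nuclear member RNA in every injured library. The ratio of the 2 sums was 1.33 and 1.16 in healthy basal cells, 0.996 and 0.694 in acute and 0.896 and 0.705 in chronic ones. In intermediate cells it was 1.37 and 1.27, then 1.09 and 0.732, then 1.07 and 0.679, and in superficial cells 1.25 and 1.32, then 0.914 and 0.606, then 1.17 and 0.420. In fibroblasts the values were 0.849 and 1.07, 0.608 and 0.50, and 0.821 and 0.475, where chronic library 2 held 22 fibroblasts against 312 to 1442 in the others, and in myofibroblasts 1.14 and 1.16, 0.798 and 0.710, and 0.869 and 0.755. In all 5 classes both healthy libraries thus lay above all 4 injured ones.

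The log2 difference of the ratio against healthy was −0.58 (acute) and −0.64 (chronic) in basal, −0.57 and −0.63 in intermediate, −0.79 and −0.87 in superficial cells, −0.79 and −0.61 in fibroblasts and −0.61 and −0.51 in myofibroblasts. Each had an exact two-sided permutation p of 0.33333, the smallest that 2 against 2 libraries allow, so no difference could pass. The same healthy libraries serve both injuries and the classes come from the same libraries, so these values are not independent of each other. The 2 parts of the ratio moved apart: the nuclear share was higher by 0.15 to 0.32 and the mitochondrial share lower by 0.32 to 0.68 on the log2 scale. These sizes moved with single libraries. Leaving out 1 library at a time gave nuclear differences of 0.0605 (without healthy library 1) to 0.3301 (without healthy library 2) in acute basal, 0.0615 to 0.3068 in acute intermediate and 0.0345 to 0.2709 in acute superficial cells, with the lowest and highest values from the same libraries. In chronic basal cells the difference was 0.1424 without chronic library 1 and 0.4431 without chronic library 2, and in chronic myofibroblasts 0.0143 and 0.3285. Without chronic library 2 the mitochondrial share in chronic injury was no longer lower in intermediate cells (0.1274), superficial cells (0.0837) and fibroblasts (0.0284), and it differed by −0.0253 in basal cells and −0.0777 in myofibroblasts. The ratio stayed below healthy with each library left out, from −0.1292 in chronic superficial cells without chronic library 2 to −1.6098 there without chronic library 1. With mitochondrially encoded and ribosomal protein genes out of the total, the nuclear share after chronic injury differed by 0.0874 in basal, 0.0533 in intermediate and −0.0054 in superficial cells and 0.1076 in fibroblasts. By gene the median nuclear difference was −0.03 in chronic superficial cells and −0.04 in chronic fibroblasts. Malat1 plus Neat1 varied as well: in intermediate cells it was 3711 and 4589 CPM in the healthy, 4543 and 6734 in the acute and 6332 and 1889 in the chronic libraries. Chronic library 2 was the lowest in that measure and in the mitochondrial share of all 5 classes, and the part of RNA quality in the ratio was not tested.

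**Figure D4:**
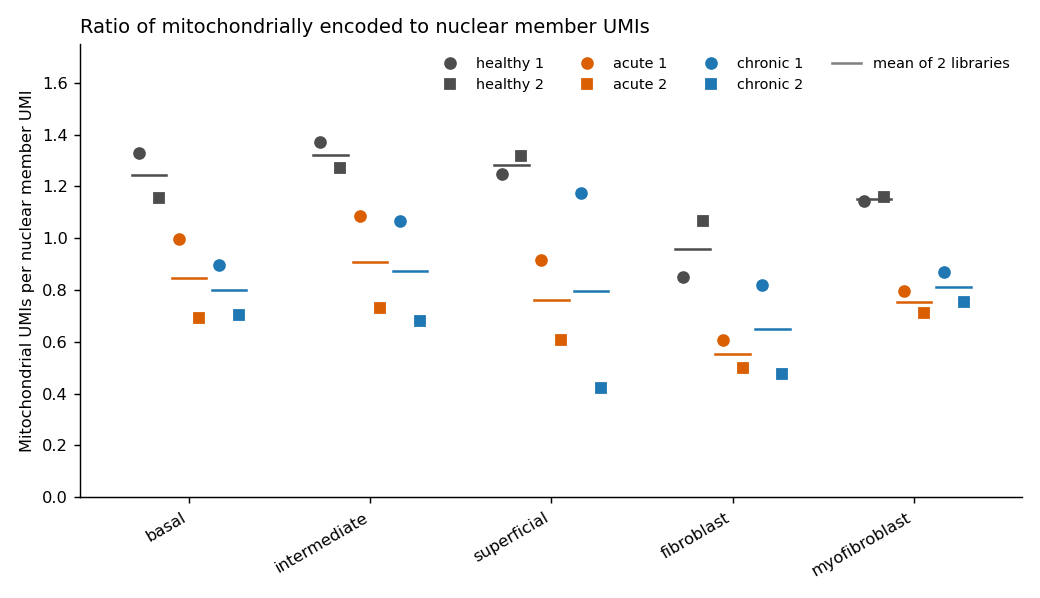
Ratio of mitochondrially encoded to nuclear member UMIs by cell class and condition, with 1 point per library and a line at the mean of the 2 libraries. The healthy points lie above all injured points in each class, for example 1.16 to 1.33 against 0.694 to 0.996 in basal cells.

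In the fit reported here no member passed edgeR's quasi-likelihood test in any of the 10 injury comparisons, and other settings called Cox6b2 and mt-Nd3, as given below. The whole table gave almost none either: 0.0% of genes were called in basal, intermediate and superficial cells and in chronic myofibroblasts, 0.136% in acute and 0.118% in chronic fibroblasts and 0.0122% in acute myofibroblasts. At an unadjusted p under 0.05, 1, 1, 2, 1 and 0 nuclear and 1, 1, 0, 1 and 1 mitochondrial members were reached in acute basal, intermediate and superficial cells, fibroblasts and myofibroblasts, against 2.27, 2.36, 7.65, 3.81 and 2.69% of all genes. In the chronic comparisons these counts were 2, 4, 3, 1 and 3 nuclear and 4, 1, 1, 1 and 1 mitochondrial members, against 4.78, 5.24, 8.29, 5.41 and 6.49% of all genes. DESeq2 called 1 member, Cox6b2, in each of the 6 urothelial comparisons and none in the mesenchymal ones. Of all genes it called 0.0819, 0.0915, 0.365, 0.199 and 0.0975% in the acute and 0.118, 0.534, 0.625, 0.217 and 0.11% in the chronic comparisons, in the same order of classes.

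Cox6b2 was higher after injury in all 3 urothelial layers by value. In basal cells it was 9.24 and 8.52 CPM in healthy libraries, 57.5 and 36.3 after acute and 46.4 and 32.6 after chronic injury. In intermediate cells it was 3.69 and 6.09, then 15.8 and 19.9, then 23.0 and 17.6 CPM, and in superficial cells 3.66 and 6.50, then 35.3 and 22.3, then 28.3 and 20.4 CPM. No injured library overlapped a healthy one in any layer. Of all genes, 16.3, 18.8 and 22.6% likewise lay above both healthy libraries in acute basal, intermediate and superficial cells. In chronic injury these shares were 26.1, 35.7 and 34.7%. The layers come from the same libraries, so they are not independent of each other. The log2 differences were 2.35 (acute) and 1.97 (chronic) in basal, 1.81 and 1.84 in intermediate and 2.44 and 2.06 in superficial cells, with edgeR adjusted p of 0.3, 0.378, 0.908, 0.439, 0.211 and 0.208. DESeq2's adjusted p for the same 6 were 8.11e-07, 0.000209, 0.000159, 5.95e-05, 3.16e-07 and 0.000105. In fits that left out 1 acute library, where the lone acute library is assumed to vary like the other groups, edgeR called it in acute basal cells without acute library 1 (adjusted p = 0.032) or acute library 2 (0.0385), in acute superficial cells without acute library 1 (0.0251) and in acute fibroblasts without acute library 1 (0.019). It was also called in acute fibroblasts with a replicate block in which the chronic numbers were crossed (log2 1.63, adjusted p = 0.0049) and in acute basal cells without integration (2.29, 0.0444). In fibroblasts it was 123 and 199 CPM in healthy, 415 and 602 in acute and 363 and 395 in chronic libraries (log2 1.61 and 0.98), and in myofibroblasts 73.5 and 241, 281 and 198, and 390 and 273 CPM (0.57 and 0.99), where the acute and healthy libraries overlapped. The summed mesenchymal markers of basal cells, as a percent of the mesenchymal level, were 0.831 and 0.726% in healthy, 0.440 and 1.59% in acute and 1.03 and 0.507% in chronic libraries. The part of RNA from other cells in the Cox6b2 differences was not tested.

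The mitochondrial genes were lower by value in most comparisons, with medians of −0.39 to −0.77 on the log2 scale against −0.03 to 0.01 over all genes. In acute injury mt-Nd3 (−1.04 to −1.35) and mt-Nd2 (−0.88 to −1.22) differed most in every class. For mt-Nd3 acute library 2 lay above healthy library 1 in basal cells, fibroblasts and myofibroblasts, so healthy library 2 carried the difference there. That library is the one kept in the fit without healthy library 1 given below. For mt-Nd2 in basal cells the libraries read 713 and 1086 CPM in healthy, 505 and 491 in acute and 719 and 465 in chronic injury, so the acute libraries lay below both healthy ones and the chronic ones did not. In acute fibroblasts edgeR called mt-Nd3 without healthy library 1 (−1.98, adjusted p = 0.0289), a fit in which the lone healthy library is assumed to vary like the other groups. In chronic injury the largest differences on the lower side among members with at least 50 CPM were those of mt-Atp6 (−0.78) and mt-Nd2 (−0.78) in basal cells, mt-Atp6 (−0.81) and mt-Nd2 (−0.80) in intermediate cells, mt-Nd1 (−1.06) and mt-Nd2 (−1.01) in fibroblasts and mt-Nd1 (−0.74) and mt-Atp6 (−0.69) in myofibroblasts, and mt-Co2 reached −1.0 in superficial cells. In chronic superficial cells mt-Atp6, a proton channel subunit of complex V, was 9819 and 3347 CPM against 10691 and 12593 in healthy (log2 −1.08, edgeR adjusted p = 0.573).

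Both acute libraries lay below both healthy ones for 8 of 13 mitochondrial members in basal, 7 of 13 in intermediate, 7 of 13 in superficial cells, 7 of 13 in fibroblasts and 7 of 12 in myofibroblasts. Over all genes the same was so for 11.2, 6.98, 14.5, 14.5 and 13.7%. In chronic injury the counts were 3, 1, 1 and 1 of 13 and 2 of 12, against 9.36, 6.05, 7.69, 11.4 and 15.2% of all genes. Nuclear members lay above both healthy libraries in acute injury for 20 of 80, 21 of 81, 18 of 80, 36 of 81 and 38 of 80, against 16.3, 18.8, 22.6, 16.0 and 17.0% of all genes, and in chronic injury for 28 of 80, 35 of 81, 21 of 80, 24 of 81 and 19 of 80, against 26.1, 35.7, 34.7, 25.2 and 19.7%. The nuclear counts of acute fibroblasts and myofibroblasts stood furthest above the background. Below both healthy libraries lay 2 of 80, 2 of 81, 7 of 80, 0 of 81 and 3 of 80 nuclear members in acute and 2 of 80, 2 of 81, 2 of 80, 5 of 81 and 3 of 80 in chronic injury, each a smaller share than that of all genes given above.

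Among nuclear members with at least 50 CPM, the largest differences on the higher side, beside Cox6b2, were those of Ndufab1 (log2 0.55), Cox7c (0.41) and Ndufa1 (0.35) in the acute basal and intermediate layers, Atp5g1 (0.50) and Atp5g2 (0.44) in acute superficial cells, Ndufb9 (0.57) in acute fibroblasts and Cox6a1 (0.56) in acute myofibroblasts. In chronic injury Ndufa3 differed by 0.71 in basal, 0.71 in intermediate and 0.56 in superficial cells, 0.78 in fibroblasts and 0.75 in myofibroblasts, and Uqcrc1 by 0.66 in basal and 0.83 in intermediate cells, a value that chronic library 1 carried. Atp5k reached 0.56 in chronic superficial cells, and Uqcrh (−0.65 there and −0.52 in chronic intermediate cells) and Cox7a2l (−0.58 in chronic intermediate cells) lay on the lower side. Cox7a1 in superficial cells was higher by 0.93 in acute and 1.08 in chronic injury (edgeR adjusted p = 0.466 and 0.347).

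Whether the step between layers changed with injury was tested as an interaction within libraries. For superficial against intermediate cells 2.08% of all 12902 genes were called in acute injury, 0.806% higher and 1.28% lower, and 1 of 80 nuclear and 13 mitochondrial members, Cox7a1, whose step was larger by 1.01 ± 0.21 on the log2 scale (SE, edgeR adjusted p = 0.0122). In chronic injury 1.35% were called, 0.326% higher and 1.02% lower, and again 1 member, Ndufa9, whose step was smaller by 0.71 ± 0.17 (SE, adjusted p = 0.0499). The Cox7a1 call was lost without healthy library 1 (1.09, adjusted p = 0.0616), healthy library 2 (0.94, 0.138) or acute library 1 (0.94, 0.0529). The Ndufa9 call was lost without healthy library 1 (−0.71, 0.252), healthy library 2 (−0.66, 0.237) or chronic library 1 (−0.37, 0.547), and with library sizes that leave out mitochondrial and ribosomal protein genes (−0.70, 0.0505). Ndufa9, an accessory subunit of complex I, was 54.1 CPM in intermediate and 61.7 CPM in superficial cells of chronic library 1, against 18.3 to 25.9 and 37.0 to 46.6 CPM in the other libraries. Without chronic library 2 this comparison called 9 members. For basal against intermediate cells no member was called, against 0.0155% of genes in acute injury, all higher, and 0.163% in chronic injury, 0.0854% higher and 0.0776% lower.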

How the data were processed

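The authors deposited 1 table of UMI counts per library, genes by cells, which per the labels came from 10x Chromium libraries of mouse bladder mucosa aligned with Cell Ranger to mm10. The table of healthy library 1 ended in 1 incomplete line, which was dropped, and acute library 2 used a newer annotation, so genes were matched by Ensembl ID.

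Cells with over 500 genes and under 10% mitochondrially encoded UMIs were kept, and Scrublet doublets (0.8% per 1000 cells, 4.28 to 11.1% of a library) were removed. Libraries were normalised with sctransform 0.4.2, integrated in Seurat 5.3.0 on 3000 features without the members, and clustered with Leiden (30 components, 20 neighbours, resolution 0.8). Clusters were named from markers, and cycling cells lay 2 MADs above the median score. Counts were summed per library and class (at least 20 cells) and tested with edgeR 4.0.16 (quasi-likelihood, TMM, filterByExpr) with Benjamini-Hochberg adjustment over all genes tested, class comparisons carrying the library as a block. The SE of an edgeR difference is its size divided by the square root of the quasi-likelihood F, not a standard error estimated by the fit. DESeq2 1.42.0 was an alternative. A level in CPM is scaled to the total UMIs of the class in a library, with no TMM factor. Shares were compared by exact permutation tests.

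The members and lists were chosen with earlier results of these data known. The text names all mitochondrial members, the paired isoforms and, per comparison, the 5 largest rises and falls among called nuclear members with a mean of at least 50 CPM (where none was called, 2 each way among all members, both genomes) and the 2 largest of the other lists each way. Tested on simulated data for superficial against intermediate cells (12027 genes), the fit recovered 96% of 2-fold and 100% of 4-fold changes. For acute against healthy intermediate cells (13119 genes) it recovered 13% and 76%, and for acute against healthy fibroblasts (11058 genes) 8% and 71%. Unchanged genes called in these 3 simulations numbered 16, 1 and 23, the last more than the 15 genes called in the real acute fibroblast comparison. Alternatives were DESeq2, other library sizes, other filters on cells and genes, doublets kept, no integration, each library left out, a replicate block and scaling without TMM. No chance tests over gene lists were run.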

Additional observations from a re-analysis of the deposited data

Results flagged for a closer look

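The difference between superficial and intermediate cells was tested as an interaction with injury for every gene, and 1 of 80 nuclear and 13 mitochondrial members was called in each injury, against 2.08% of all genes in acute and 1.35% in chronic injury. The step of Cox7a1, the heart and muscle isoform of a subunit of complex IV, was larger after acute injury than in healthy mucosa by 1.01 on the log2 scale (SE 0.205, edgeR adjusted p = 0.0122). Over 11 settings the value lay between 0.94 and 1.13 with adjusted p from 0.00318 to 0.138. The step of Ndufa9, an accessory subunit of complex I, was smaller after chronic injury, at −0.71 (SE 0.174, adjusted p = 0.0499), with −0.96 to −0.37 and adjusted p from 0.013 to 0.547 over 11 settings.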

How the results depend on the processing

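Of 80 results under 881 alternatives in all, 812 kept their direction and side of the threshold or stayed within 1.5 times. The share and ratio tests of injury and of endothelial cells could not change side. Their smallest possible p was 0.33333 and 0.0625 in the exact permutation test, so for them that count says little about stability. The nuclear share differences that passed no longer did without integration (log2 0.1647 for intermediate over basal, 0.2146 superficial over intermediate, 0.3793 superficial over basal, 0.0605 cycling intermediate, −0.2226 mesenchymal and −0.3418 macrophage), with the mean of the cells' shares (0.1389, 0.2278, 0.3667, 0.0854, −0.1965 and −0.3509) or with mitochondrial and ribosomal protein genes out of the total. With that total they were 0.1685, 0.0496, 0.2181, −0.6310 and −0.6284, cycling intermediate reversed to −0.0241, cycling basal moved to −0.0467, and chronic injury gave 0.0874 in basal, 0.0533 in intermediate, −0.0054 in superficial cells and 0.1076 in fibroblasts. The mitochondrial share passed under the strict cell filter (0.2006 intermediate over basal, −0.0420 cycling basal, −0.1083 cycling intermediate, −0.3739 mesenchymal, −0.5065 macrophage and 0.4296 myofibroblast). That filter kept cells with over 1000 genes and under 5% mitochondrially encoded UMIs. It thus selected cells on the share being tested, and these passes are no independent check of it. Members called became 67 (superficial over intermediate), 44 (cycling intermediate) and 23 (endothelial) without TMM. They became 12 with DESeq2 and 9 without integration in cycling basal and 11 without integration in cycling intermediate cells. The cause of these changes was not tested. Adjusted values of the share tests depend on how many of the 9 comparisons reach the smallest p of 0.03125, so gaining or losing a call there says little about stability.

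In the injury comparisons DESeq2 called 1 member in each urothelial layer and both injuries, and 1 was called in acute basal cells without integration. In the chronic superficial step 0 members were called with library sizes without mitochondrial and ribosomal genes, 2 with no filter on low counts, 8 under the strict cell filter and 3 without TMM. With each library left out in turn, members called ranged from 54 to 61 (intermediate over basal), 34 to 58 (superficial over intermediate), 58 to 66 (superficial over basal), 8 to 27 (cycling basal), 17 to 28 (cycling intermediate), 61 to 68 (mesenchymal), 55 to 59 (macrophage), 44 to 62 (endothelial) and 10 to 17 (myofibroblast). The range was 0 to 1 in acute basal and superficial cells and acute fibroblasts, 0 in the other injury comparisons, 0 to 2 in the acute and 0 to 9 in the chronic superficial step.

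Libraries of different conditions share replicate numbers, but the labels do not say that a number marks an animal or a day. Deviations of same-numbered libraries correlated at 0.363 to 0.483 between healthy and acute, −0.529 to −0.098 between healthy and chronic and −0.34 to −0.143 between acute and chronic, so the numbers were not taken as pairs. With the replicate block 0 members were called in all 10 injury comparisons, as without it. With the chronic numbers crossed, a fit chosen after seeing the data, 1 member, Cox6b2 (log2 1.63, adjusted p = 0.0049), was called in acute fibroblasts and 0 elsewhere. The scaling without TMM, the crossed block and the left-out libraries of the layer steps were also added after seeing the data. With 2 libraries a condition, the fit recovered 13% of simulated 2-fold changes in intermediate cells. Where a left-out library leaves 1 in a condition, that library is assumed to vary like the other groups.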

Other observations

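In the basal cells of chronic library 1 12 of 87 members had a level over 1.5 times that of the highest other library, among members with a mean of at least 20 CPM. These were Atp5b, Ndufa11, Ndufa9, Ndufb2, Ndufb4, Ndufb6, Ndufs7, Ndufs8, Ndufv1, Sdhc, Uqcrc1 and Uqcrc2, and over all 4335 genes at that level 7.45% did so. In intermediate cells 7 of 86 members did (Cox6a1, Ndufa9, Ndufb6, Ndufs7, Ndufs8, Ndufv1 and Uqcrc1, a share near the 6.71% of 4100 genes), and in superficial cells none of 86, against 2.08%. Uqcrc1 was 225 CPM in its basal cells against 74.5 to 97.6 CPM in the others, and Ndufb6 was 173 CPM against 53.3 to 89.4 CPM. The list of these genes was read after their values were seen, and the cause was not tested.

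The cells differed in how much Cox6b2 they held per UMI of Ndufa4l2. In all urothelial cells the ratio was 2.51 to 26.5 over libraries, and in mesenchymal cells 0.61 to 3.71.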
